A study of Mus musculus with 12 samples.

Results

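The interleukin-1 (IL-1) and tumour necrosis factor (TNF) ligands and receptors described here are 10 genes: the ligands Il1a, Il1b and Tnf, the antagonist Il1rn, and the receptors Il1r1, Il1r2, Il1rap, Tnfrsf1a, Tnfrsf1b and Tnfrsf12a. They were taken by gene symbol from the 47069 genes of the deposited expression table, and all 10 were among the 17386 genes with a mean of at least 0.1 FPKM (a read level scaled to transcript length and library size) over the 12 libraries. The libraries came from livers of mice at postnatal day 14. Cdk1 Liv-/- mice, obtained by crossing a Cdk1 flox/flox line with Albumin-Cre mice, were compared with wild type (WT) mice, as isolated hepatocytes and as whole liver, with 3 libraries in each of the 4 groups. Albumin-Cre acts in hepatocytes, so that whole liver of Cdk1 Liv-/- mice also holds endothelial, immune and stromal cells outside the reach of the deletion, and isolated hepatocytes passed through a cell isolation that whole liver did not. Cell isolation and compartment cannot be told apart in this design. The labels do not say which libraries came from one animal, so that p-values measure the spread between these libraries.

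IL-1 alpha and IL-1 beta signal through the IL-1 receptor type 1 together with the IL-1 receptor accessory protein, and the IL-1 receptor antagonist and the decoy receptor type 2 limit that signal. TNF binds TNF receptors 1 and 2, while the product of Tnfrsf12a, also called Fn14, binds the TNF-like ligand TWEAK, encoded by Tnfsf12. In the liver, macrophages are a well known source of IL-1 and TNF, hepatocytes answer them with NF-kappaB activation and acute-phase genes, and Fn14 is known from regenerating and injured liver, where it is carried by hepatocytes and progenitor cells.

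The labels were first checked against the values. Cdk1, the deleted gene, stood at 27.9, 20.4 and 28.2 FPKM in WT hepatocytes and at 9.68, 11.8 and 6.87 FPKM in Cdk1 Liv-/- hepatocytes. In whole liver Cdk1 stood at 25.3, 22.7 and 21.5 FPKM in WT and at 11.7, 12.1 and 14.2 FPKM in Cdk1 Liv-/- libraries. In each compartment no Cdk1 Liv-/- library reached the WT range, and the means differed by 2.70-fold in hepatocytes and 1.83-fold in whole liver. Albumin (Alb) was the most abundant hepatocyte marker in each library. One library, replicate 3 of Cdk1 Liv-/- whole liver, held 158 FPKM of Xist and 0.0 FPKM summed over Kdm5d, Uty, Ddx3y and Eif2s3y, 4 genes of the Y chromosome, while the other 11 libraries held at most 0.14 FPKM of Xist and 48.4 to 62.1 FPKM of the Y-linked genes. The study's methods name male mice, and the whole liver genotype differences of the 10 genes are therefore given with and without that library. Marker and pathway lists are given with it.

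Markers of other liver cells set a further library apart. Summed over 12 markers of Kupffer cells and macrophages, WT hepatocytes held 376, 205 and 692 FPKM and Cdk1 Liv-/- hepatocytes 229, 171 and 150.0 FPKM, against 542, 597 and 603 FPKM in WT whole liver and 689, 946 and 719 FPKM in Cdk1 Liv-/- whole liver. The 10 markers of sinusoidal endothelial cells summed to 153, 105 and 284 FPKM in WT hepatocytes, 70.8, 46.5 and 51.4 FPKM in Cdk1 Liv-/- hepatocytes, 130.4, 155 and 189 FPKM in WT whole liver and 167, 208 and 169.5 FPKM in Cdk1 Liv-/- whole liver. Replicate 3 of WT hepatocytes thus carried the most Kupffer cell and endothelial marker RNA among the hepatocyte libraries, and Il1a and Il1b are given without it too. By the mean over all 12 libraries the most abundant genes of these lists were Cd5l for Kupffer cells and Fcgr2b for endothelial cells, with Clec4f above Cd5l in 4 of the 6 WT libraries, and no gene of either list stood at 0 in any library.

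Within WT hepatocytes the order of mean levels in FPKM, a scale per transcript length, was Il1rap at 42.8 ± 4.29 (SD, n = 3, as for all means below), Tnfrsf1a at 32.4 ± 4.05, Tnfrsf1b at 12.3 ± 0.599, Il1r1 at 8.40 ± 1.78, Tnfrsf12a at 6.59 ± 0.808, Il1a at 6.25 ± 1.11, Il1b at 4.35 ± 0.480, Il1rn at 2.62 ± 1.54, Tnf at 0.0533 ± 0.00577 and Il1r2 at 0.0300 ± 0.0520. The libraries of neighbours overlapped for Il1r1 with Tnfrsf12a, Tnfrsf12a with Il1a, Il1b with Il1rn and Tnf with Il1r2, and lay apart for the other neighbours. The accessory protein and TNF receptor 1 thus led this order, and Tnf and the decoy receptor closed it. In WT whole liver the order was Il1rap, Tnfrsf1a, Tnfrsf1b, Il1r1, Tnfrsf12a, Il1a, Il1rn, Il1b, Tnf and Il1r2, with overlap between Il1rap and Tnfrsf1a, along Tnfrsf1b, Il1r1 and Tnfrsf12a, and between Il1a and Il1rn. In Cdk1 Liv-/- hepatocytes the libraries of Il1rap, Tnfrsf1a, Tnfrsf12a, Il1r1 and Tnfrsf1b overlapped from each neighbour to the next, followed apart by Il1rn, Il1a and Il1b, and then by Il1r2 and Tnf, which overlapped. In Cdk1 Liv-/- whole liver Tnfrsf12a came first at 61.4 ± 16.8 FPKM and overlapped Tnfrsf1a at 52.0 ± 1.86 FPKM, followed apart by Il1rap at 28.5 ± 6.08 FPKM. Below them Tnfrsf1b, Il1rn and Il1r1 overlapped, as did Il1a with Il1b and Il1r2 with Tnf.

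**Figure D1:**
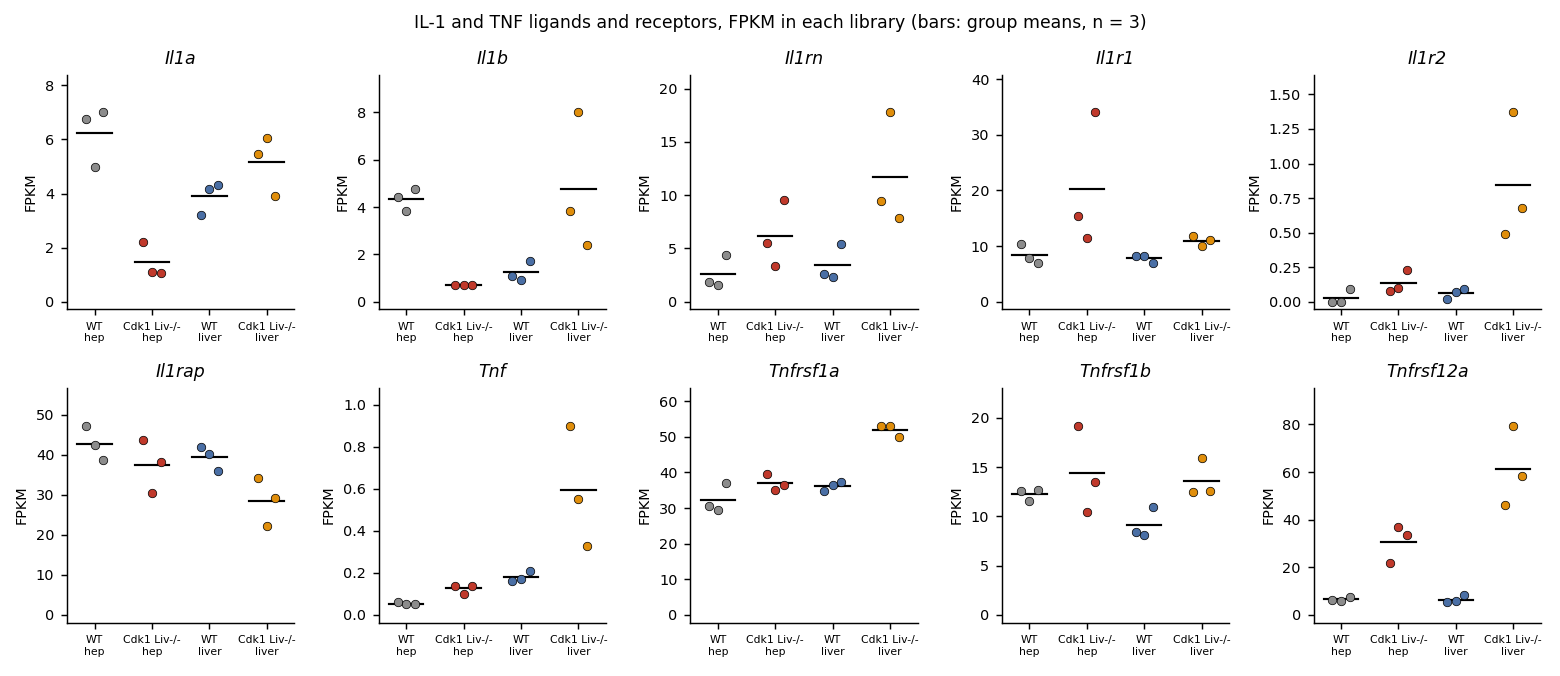
Level in FPKM (vertical axes, a separate scale for each gene) of the 10 genes in each of 12 libraries, with points for libraries and bars for group means (n = 3). Il1a and Il1b were low in all 3 Cdk1 Liv-/- hepatocyte libraries, and Tnfrsf12a was high in all 6 Cdk1 Liv-/- libraries.

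Loss of Cdk1 went with lower Il1a and Il1b and higher Tnfrsf12a in isolated hepatocytes, and with higher Il1b, Il1rn, Il1r2 and Tnfrsf12a in whole liver. These calls come from limma on log2(FPKM + 0.5), with p-values adjusted by the Benjamini-Hochberg (BH) method over the 17386 genes, and require both an adjusted p no higher than 0.1 and a log2 difference of 1 or more in size. In hepatocytes 1 of the 10 genes was called higher, where 4.2% of all tested genes were, and 2 were called lower, where 2.17% were. At the adjusted p alone the same 1 and 2 genes passed, against 12.1% of all tested genes higher and 6.61% lower. The 377 genes called lower among all tested genes became 168 without WT hepatocytes replicate 1 and 592 without replicate 2. In whole liver 4 of the 10 were called higher (4.59% of all tested genes) and 0 lower (1% of them) by limma, with 1 lower at an unadjusted p under 0.05 and 1 lower by the two-sample test with q-values, both without the fold threshold. Of the 4 called higher, Il1r2 passed the filter on low values only through the Cdk1 Liv-/- whole liver libraries. At the adjusted p alone 8 were higher and 1, Il1rap, was lower. A share of 38% of all tested genes was higher at that threshold and 7.53% lower, so that a rise without the fold threshold was common among all genes of whole liver.

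By the separation of libraries alone the set was wider in hepatocytes, where Il1r1 and Tnf lay apart but did not pass the limma test. All Cdk1 Liv-/- hepatocyte libraries lay above all WT ones for 3 genes (Il1r1, Tnf and Tnfrsf12a; 20.6% of all tested genes did) and below them for 2 (Il1a and Il1b; 13.4%). In whole liver 8 of the 10 lay above (43.2% of all tested genes) and Il1rap alone lay below (8.94%), while Il1a overlapped. The counts of 3 and 2 in hepatocytes and of 1 lower in whole liver are near the shares of all tested genes. The median log2 difference of all tested genes was 0.05 in hepatocytes and 0.18 in whole liver. With median-ratio size factors the whole liver median moved by -0.17, and the genes called were 513 higher and 242 lower (67.9% higher) in place of 798 and 174 (82.1% higher). Under those size factors the differences in whole liver were 1.29 for Il1b, 1.42 for Il1rn, 1.08 for Il1r2 and 2.93 for Tnfrsf12a, and these 4 genes were still called, while Il1r1 (adjusted p = 0.111) and Tnfrsf1b (adjusted p = 0.156) no longer passed the limma test at the BH threshold.

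**Figure D2:**
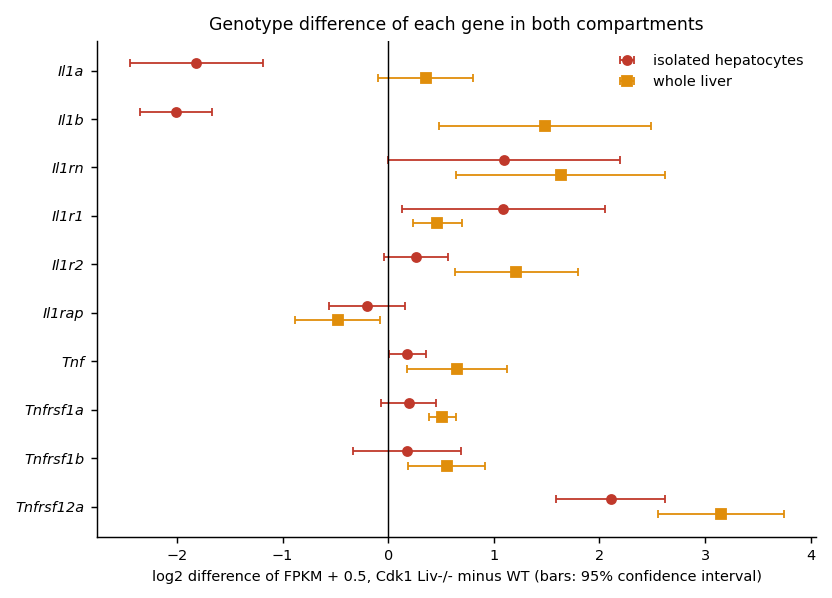
Log2 difference between Cdk1 Liv-/- and WT libraries (horizontal axis, log2 of FPKM + 0.5) for each of the 10 genes in isolated hepatocytes (circles) and whole liver (squares), with 95% confidence intervals from limma (3 libraries against 3). Il1a and Il1b sat at -1.82 and -2.01 in hepatocytes and at 0.35 and 1.48 in whole liver, and Tnfrsf12a lay to the right of 0 in both.

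Il1a and Il1b encode the agonists of the IL-1 receptor and lie near each other on chromosome 2, Il1a at chr2:129299610-129309972 and Il1b at chr2:129364570-129371139, both on the minus strand of GRCm38. Il1rn, which encodes their antagonist, lies on the same chromosome at chr2:24336853-24351494 on the plus strand. Their promoters are printed as those of the agonists and their antagonist, and that of Tnfrsf12a as the gene called higher in both compartments. Each runs from 250 bases before to 50 bases after a start site, in the direction of transcription, from RefSeq on build GRCm38.p6, with 1 window per start site and all 10 genes matched by symbol. Capitals mark matches, on either strand, to a motif of the NF-kappaB type, GGG followed by TTCC after 3 free bases, or of the AP-1 type, TGANTCA, which do not overlap here. Of 32851 promoters of the same length, 5.56% held the first and 7.81% the second.
Il1a promoter, chr2:129309923-129310222, minus strand: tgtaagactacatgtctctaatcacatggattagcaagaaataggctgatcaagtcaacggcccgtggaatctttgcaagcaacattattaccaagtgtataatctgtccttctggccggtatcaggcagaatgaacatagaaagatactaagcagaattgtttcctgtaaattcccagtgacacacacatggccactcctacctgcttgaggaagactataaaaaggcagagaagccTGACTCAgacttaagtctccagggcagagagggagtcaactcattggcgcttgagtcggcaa
Il1b promoter, chr2:129371090-129371389, minus strand: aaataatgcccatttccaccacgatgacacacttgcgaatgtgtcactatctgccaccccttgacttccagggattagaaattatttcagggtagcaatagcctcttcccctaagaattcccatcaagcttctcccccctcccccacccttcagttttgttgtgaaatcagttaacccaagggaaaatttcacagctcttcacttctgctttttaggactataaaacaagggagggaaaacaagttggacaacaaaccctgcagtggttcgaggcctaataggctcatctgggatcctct
Il1rn promoter at start site 1, chr2:24336610-24336909, plus strand: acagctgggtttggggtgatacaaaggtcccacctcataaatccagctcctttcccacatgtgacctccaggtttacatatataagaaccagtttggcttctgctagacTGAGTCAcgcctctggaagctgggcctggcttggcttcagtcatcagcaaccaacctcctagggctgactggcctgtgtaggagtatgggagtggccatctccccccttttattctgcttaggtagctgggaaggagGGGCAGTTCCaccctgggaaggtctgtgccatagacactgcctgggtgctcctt
Tnfrsf12a promoter, chr17:23677400-23677699, minus strand: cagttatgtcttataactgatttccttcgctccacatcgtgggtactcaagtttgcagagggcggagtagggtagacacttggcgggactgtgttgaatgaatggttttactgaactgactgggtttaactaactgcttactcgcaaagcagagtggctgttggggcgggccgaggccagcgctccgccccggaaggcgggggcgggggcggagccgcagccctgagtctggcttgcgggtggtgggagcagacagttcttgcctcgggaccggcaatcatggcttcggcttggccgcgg
The Il1a window held TGACTCA at position -12 from the start site. The first Il1rn window held TGAGTCA at -141 and GGGCAGTTCC at -4, and the overlapping windows of its other start sites shared GGGTTTTTCC. Of the 3 Il1rn windows only the first is printed, and levels per gene do not show which start site was used. The window of the second Il1r1 start site held GGAATGCCCC, the reverse complement of the first motif, at -232. The letters of both motifs were in none of the windows of Il1b, Il1r2, Il1rap, Tnf, Tnfrsf1a, Tnfrsf1b and Tnfrsf12a. These matches describe the sequence of the windows and show no binding.

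Il1a stood at 6.77, 4.98 and 7.0 FPKM in WT hepatocytes and at 2.19, 1.11 and 1.07 FPKM in Cdk1 Liv-/- hepatocytes. In whole liver Il1a stood at 3.19, 4.17 and 4.31 FPKM in WT and at 5.47, 6.07 and 3.91 FPKM in Cdk1 Liv-/- libraries. The 3 Cdk1 Liv-/- hepatocyte libraries were the lowest of all 12, the 2 hepatocyte groups did not overlap, and the whole liver groups did. Il1a fell 4.29-fold in hepatocytes (log2 difference -1.82, 95% confidence interval -2.45 to -1.19, limma adjusted p = 0.0109). In whole liver the log2 difference was 0.35 (interval -0.10 to 0.80) and did not pass the limma test (BH adjusted p = 0.182). Without the Xist library that value was 0.52, with a limma BH adjusted p of 0.0637, and with size factors 0.15, with a limma BH adjusted p of 0.567, the ends of the range over the alternatives.

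Il1b stood at 4.43, 3.83 and 4.78 FPKM in WT hepatocytes and at 0.69, 0.69 and 0.72 FPKM in Cdk1 Liv-/- hepatocytes. In whole liver it stood at 1.07, 0.93 and 1.70 FPKM in WT and at 3.85, 8.0 and 2.41 FPKM in Cdk1 Liv-/- libraries. The order of the genotypes was thus opposite in the 2 compartments, with no overlap in either. Il1b fell 6.21-fold in hepatocytes (log2 difference -2.01, interval -2.35 to -1.67, limma adjusted p = 0.00159) and rose 3.85-fold in whole liver (1.48, interval 0.48 to 2.48, limma adjusted p = 0.0380). The whole liver call was lost when either of 2 WT libraries was left out: the limma BH adjusted p was 0.114 without WT whole liver replicate 1 and 0.111 without WT whole liver replicate 2, at differences of 1.42 and 1.36 and with a range of 0.00718 to 0.114 over the alternatives. Without the Xist library the difference was 1.84 (limma adjusted p = 0.0299). Replicate 2 of Cdk1 Liv-/- whole liver held the highest Il1b level, and without it the difference was 1.06.

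The genotype difference itself differed between compartments for both agonists. The interaction, hepatocyte difference minus whole liver difference, was -2.17 for Il1a (SE 0.328, limma adjusted p = 0.0218) and -3.49 for Il1b (SE 0.444, limma adjusted p = 0.0103). Of the 10 genes, 3 passed the interaction test as lower, Il1a, Il1b and Il1r2, against 7.49% of all tested genes, and 0 as higher, against 2.35%, by limma, with 0 higher at an unadjusted p under 0.05 as well. Il1r2 passed the filter on low values only through Cdk1 Liv-/- whole liver, so that it adds no support to that count. The interactions of Il1r1 (0.63, adjusted p = 0.422), Il1rap (0.28, adjusted p = 0.516), Tnf (-0.47, adjusted p = 0.222) and Tnfrsf1b (-0.38, adjusted p = 0.440) did not pass in limma, though that of Tnf did without the Xist library (-0.66, adjusted p = 0.0957). With single libraries left out these ranged from 0.18 to 0.95 for Il1r1, 0.11 to 0.42 for Il1rap, -0.66 to -0.28 for Tnf and -0.60 to -0.18 for Tnfrsf1b. Marker genes passed as lower beside Il1a and Il1b: 9 of 10 endothelial (median -1.73), 5 of 10 monocyte (-0.87), 4 of 12 Kupffer cell (-1.42) and 4 of 10 stellate cell markers (-1.41). Of 12 neutrophil markers 0 passed by limma (median -1.40), with 8 lower at an unadjusted p under 0.05, and 3 of 10 hepatocyte markers passed as higher. The part of these cells in the interactions was not tested. The median interaction of all tested genes was -0.11. Size factors moved it by 0.12 and turned the genes called from 409 higher and 1303 lower (23.9% higher) into 548 and 492 (52.7% higher), with Il1a at -2.05 and Il1b at -3.38 still past the test. The all-gene count of lower genes also hung on single libraries, with 43 without WT whole liver replicate 1 and 2232 without WT hepatocytes replicate 2.

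Il1a and Il1b fell in hepatocytes beside markers of other cells. In these bulk samples fewer cells of a type and less RNA per cell cannot be told apart. The endothelial sums of the genotypes lay apart, while the Kupffer cell sums overlapped. WT hepatocytes replicate 2 held 3.83 FPKM of Il1b at a Kupffer cell sum of 205 FPKM. Cdk1 Liv-/- hepatocytes replicate 1 held 0.69 FPKM at a sum of 229 FPKM. All 10 endothelial markers fell in Cdk1 Liv-/- hepatocytes (median log2 difference -1.61), as did 2 of 12 Kupffer cell and macrophage markers (median -1.09), 4 of 8 T and NK cell markers (-0.42), 2 of 6 B cell markers (-0.97), 2 of 7 erythroid markers (-1.23) and 1 of 10 stellate cell markers (-0.78), by limma at a BH adjusted p of at most 0.1. Of all tested genes 6.61% were lower and 12.1% higher at that threshold, so that the stellate cell count and the 2 monocyte markers that rose are near those shares. At an unadjusted p under 0.05 in limma, 10 endothelial, 8 Kupffer cell, 4 T and NK cell, 5 B cell, 3 erythroid and 2 stellate cell markers were lower. By the two-sample test with q-values these counts were 8, 0, 4, 1, 2 and 0. Neutrophil markers passed in 0 of 12 cases by limma (median -0.22), with 0 at an unadjusted p under 0.05 and 0 by the two-sample test with q-values, and 2 of 10 monocyte markers rose (median 0.05). Of the 10 hepatocyte markers 2 rose and 2 fell (median -0.40), and of 7 tested cholangiocyte markers 5 rose (median 0.72). Taken over the summed endothelial markers of the same library, a measure chosen after the data were seen, the log2 difference in hepatocytes was -0.59 for Il1a, with overlap of the genotypes (exact permutation p = 0.2), and -1.05 for Il1b, without overlap (exact permutation p = 0.1). Over the summed Kupffer cell and macrophage markers it was -1.11 for Il1a and -1.57 for Il1b, without overlap (exact permutation p = 0.1 for each). With 0.5 added to the gene, which nearly doubles Il1b in Cdk1 Liv-/- hepatocytes, the values shrank to -0.24 and -0.43 over endothelial markers (exact permutation p = 0.5 and p = 0.4) and to -0.76 and -0.95 over Kupffer cell markers (exact permutation p = 0.2 for each), with overlap in all 4. The smallest p that 3 libraries against 3 can give in this two-sided test is 0.1. Without replicate 3 of WT hepatocytes, which held the highest marker sums, Il1a fell by 1.74 (limma adjusted p = 0.0418) and Il1b by 1.95 (limma adjusted p = 0.00757) on the log2 scale. The part of these cell types in the fall of Il1a and Il1b was not tested further.

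**Figure D3:**
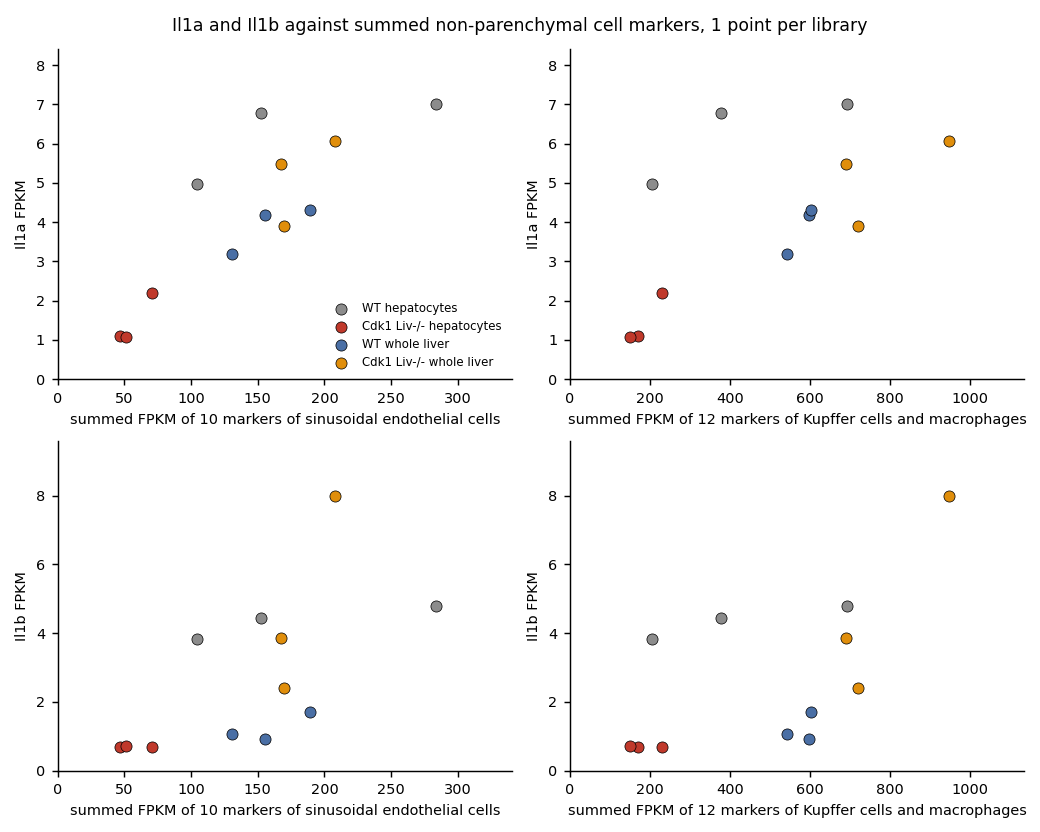
Level of Il1a (top) and Il1b (bottom) in FPKM against the summed FPKM of 10 endothelial (left) or 12 Kupffer cell and macrophage markers (right), 1 point per library. Cdk1 Liv-/- hepatocytes sat at the low end of the endothelial sums (46.5 to 70.8 FPKM) and of both genes, and Il1b in WT hepatocytes lay above WT whole liver at overlapping endothelial sums.

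In whole liver Il1b rose beside markers of other cells. Of 12 neutrophil markers 8 rose (median log2 difference 1.28), with S100a9 most abundant. Their sums were 76.4, 48.2 and 73.9 FPKM in WT and 93.6, 331 and 263 FPKM in Cdk1 Liv-/- whole liver. Il1b in those Cdk1 Liv-/- libraries stood at 3.85, 8.0 and 2.41 FPKM, so that its order was not that of the neutrophil sums. Of 10 monocyte markers 8 rose (median 1.00), with sums of 782, 765 and 791 FPKM in WT and 879, 899.5 and 799 FPKM in Cdk1 Liv-/- whole liver, led by Fn1, which hepatocytes also make. Fn1 alone stood at 753, 736 and 764 FPKM in WT and at 810, 825 and 734.5 FPKM in Cdk1 Liv-/- whole liver. These sums thus describe mostly Fn1 and not the other monocyte markers. Of 12 Kupffer cell and macrophage markers 4 rose and 1 fell (median 0.23). Stellate cell markers rose in 7 of 10 cases (median 0.74), with Col3a1 most abundant, cholangiocyte markers in 5 of 7 tested (median 1.26), with Spp1 most abundant, and endothelial markers in 2 of 10 (median 0.06). As 38% of all tested genes were higher and 7.53% lower in whole liver at the same limma adjusted p, the Kupffer cell count and the endothelial one are not above the share of all genes. Hepatocyte markers fell in 5 of 10 cases (median -0.46), B cell markers in 3 of 6 (median -0.61, Cd79b most abundant), erythroid markers in 2 of 7 (median 0.04, Hbb-bs most abundant) and T and NK cell markers in 1 of 8 (median -0.11, Gzma most abundant). Ly6g stood at 0 FPKM in 3 hepatocyte libraries and Cftr, whose mean was under 0.1 FPKM, in 1. Il1b over the summed Kupffer cell and macrophage markers was higher in all Cdk1 Liv-/- whole liver libraries, by 1.40 on the log2 scale (exact permutation p = 0.1), and over the endothelial markers by 1.61 (exact permutation p = 0.1). With 0.5 added to Il1b these were 1.06 and 1.27. The part of neutrophils, monocytes and the other cell types in the Il1b level was not tested.

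Il1rn, which encodes the secreted antagonist of the IL-1 receptor, stood at 2.59, 2.27 and 5.46 FPKM in WT whole liver and at 9.42, 17.8 and 7.89 FPKM in Cdk1 Liv-/- whole liver. In hepatocytes Il1rn stood at 1.86, 1.60 and 4.39 FPKM in WT and at 5.55, 3.39 and 9.57 FPKM in Cdk1 Liv-/- libraries. All Cdk1 Liv-/- whole liver libraries were above the WT ones, while in hepatocytes WT replicate 3 lay above Cdk1 Liv-/- replicate 2. Il1rn rose 3.40-fold in whole liver (log2 difference 1.63, interval 0.64 to 2.62, limma adjusted p = 0.0282). Without the Xist library the difference was 1.86 (limma adjusted p = 0.0454). The hepatocyte difference of 1.10 (interval -0.00 to 2.19) did not pass (limma adjusted p = 0.176). With the replicate number as a term, a replicate block, it was called (limma adjusted p = 0.0612, range 0.0612 to 0.374 over the alternatives), and at each replicate number the Cdk1 Liv-/- library was the higher. The labels do not say that the numbers pair libraries, and no pairing showed in the values. Between WT and Cdk1 Liv-/- hepatocytes of the same number, deviations from the group means correlated at -0.32, 0.02 and -0.09 (Pearson). The interaction of -0.54 did not pass (limma adjusted p = 0.662) and ranged from -0.89 to -0.16 with single libraries left out. The neutrophil and monocyte markers that rose in whole liver rose beside Il1rn and Il1r2 as well, and their part in those levels was not tested. Over the summed Kupffer cell and macrophage markers, Il1rn was higher in all Cdk1 Liv-/- libraries of both compartments, by 2.32 in hepatocytes and 1.37 in whole liver on the log2 scale (exact permutation p = 0.1 for each), or 2.16 and 1.21 with 0.5 added to Il1rn.

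The antagonist can be set against its agonists in the same library, as log2 of (Il1rn + 0.5) over (Il1a + Il1b + 0.5). This ratio was -2.31, -2.15 and -1.33 in WT hepatocytes and 0.84, 0.76 and 2.14 in Cdk1 Liv-/- hepatocytes. In whole liver the ratio was -0.62, -1.02 and -0.13 in WT and 0.01, 0.33 and 0.30 in Cdk1 Liv-/- libraries. The ratio lay below 0 in all 6 WT libraries and above 0 in all 6 Cdk1 Liv-/- libraries. In Cdk1 Liv-/- whole liver replicate 1, at 0.01, antagonist and agonists were about equal. Annotated transcripts span 379 to 1356 bases for Il1b and 321 to 2554 bases for Il1rn, so that the place of 0 depends on the lengths assumed. The genotypes did not overlap in either compartment. The difference was 3.17 in hepatocytes and 0.80 in whole liver, and an exact permutation test gave the smallest p possible with 3 libraries a group, 0.1, for each. In whole liver it was 0.76 without the Xist library (exact permutation p = 0.2).

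**Figure D4:**
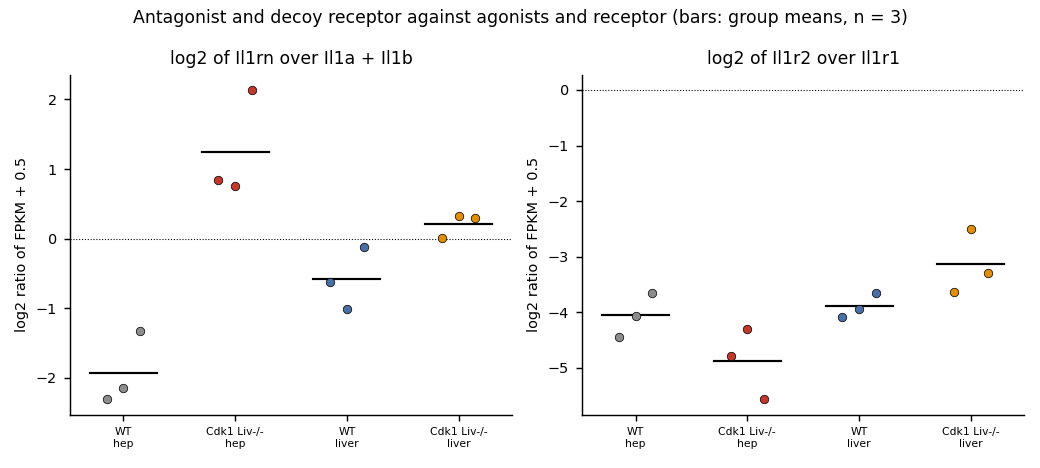
Log2 ratio of Il1rn to the sum of Il1a and Il1b (left) and of Il1r2 to Il1r1 (right) in each library, with bars for group means (n = 3) and a dotted line at 0. The Il1rn ratio lay above 0 in all 6 Cdk1 Liv-/- libraries, and the Il1r2 ratio lay below 0 in all 12.

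Il1r1 encodes the receptor that transmits the IL-1 signal. It stood at 10.4, 7.93 and 6.91 FPKM in WT hepatocytes and at 15.5, 11.4 and 34.0 FPKM in Cdk1 Liv-/- hepatocytes. In whole liver Il1r1 stood at 8.30, 8.21 and 6.93 FPKM in WT and at 11.8, 10.1 and 11.0 FPKM in Cdk1 Liv-/- libraries. Replicate 3 of Cdk1 Liv-/- hepatocytes was far above the rest, and the genotypes did not overlap in either compartment. In whole liver Il1r1 rose 1.40-fold (log2 difference 0.46, interval 0.23 to 0.70, limma adjusted p = 0.0167), below the fold threshold. It no longer passed in 1 limma fit of all 12 libraries (adjusted p = 0.295) or with size factors (0.25, adjusted p = 0.111), in a range of 0.0115 to 0.295 over the alternatives. Leaving out the Xist library gave 0.46 (limma adjusted p = 0.0528). In hepatocytes the 2.42-fold higher mean (log2 difference 1.09) did not pass (limma adjusted p = 0.136). Without Cdk1 Liv-/- hepatocytes replicate 2 it passed at 1.42 (limma adjusted p = 0.0944, range 0.0270 to 0.282 over the alternatives), and without replicate 3 the difference was 0.65.

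Il1r2, the decoy receptor that binds IL-1 without signalling, was near the lower end of detection. It stood at 0.0, 0.0 and 0.09 FPKM in WT hepatocytes and at 0.08, 0.10 and 0.23 FPKM in Cdk1 Liv-/- hepatocytes. In whole liver Il1r2 stood at 0.02, 0.07 and 0.09 FPKM in WT and at 0.49, 1.37 and 0.68 FPKM in Cdk1 Liv-/- libraries. The 3 Cdk1 Liv-/- whole liver libraries lay above all 9 others. Il1r2 rose in whole liver (log2 difference 1.21, interval 0.63 to 1.80, limma adjusted p = 0.0147), at a 14.1-fold ratio of the mean FPKM that the added 0.5 shrinks on the log2 scale. Without Cdk1 Liv-/- whole liver its mean over the libraries lay under the filter of 0.1 FPKM, so that Il1r2 was tested through that group. The means were 0.847 FPKM there, 0.03 FPKM in WT hepatocytes, 0.137 FPKM in Cdk1 Liv-/- hepatocytes and 0.06 FPKM in WT whole liver. With no filter the limma adjusted p was 0.0389. Cdk1 Liv-/- whole liver also enters the interaction and the compartment comparison in Cdk1 Liv-/- mice. Without Cdk1 Liv-/- whole liver replicate 2 the difference was 0.95, under the fold threshold, and with a pseudocount of 1 it was 0.77. Without the Xist library it was 1.28 (limma adjusted p = 0.0394). Its interaction of -0.95 passed (limma adjusted p = 0.0887), but not in 14 of 19 alternatives, where the limma BH adjusted p reached 0.196. That call was lost without any single one of 10 libraries, at differences of -1.06 to -0.69. Without the Cdk1 Liv-/- whole liver replicate 2 the interaction was -0.69 (limma adjusted p = 0.117).

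Decoy and signalling receptor together, as log2 of (Il1r2 + 0.5) over (Il1r1 + 0.5), gave -4.44, -4.08 and -3.65 in WT hepatocytes and -4.78, -4.31 and -5.56 in Cdk1 Liv-/- hepatocytes. In whole liver the ratio was -4.08, -3.93 and -3.65 in WT and -3.63, -2.50 and -3.29 in Cdk1 Liv-/- libraries. The decoy thus stayed far below the signalling receptor in all 12 libraries. In hepatocytes every Il1r2 level was below the added 0.5, and the ratio gives no direction there: its genotype difference was -0.83 with overlap (exact permutation p = 0.2) and -0.24 with a pseudocount of 0.1, while the mean FPKM was 4.56-fold higher for Il1r2 and 2.42-fold higher for Il1r1. In whole liver the ratio was higher in all Cdk1 Liv-/- libraries, by 0.75 (exact permutation p = 0.1), a size that depended on the pseudocount, with 2.00 at 0.1 (exact permutation p = 0.1) and 0.33 at 1 (exact permutation p = 0.2). Without Cdk1 Liv-/- whole liver replicate 2 it was 0.43 (exact permutation p = 0.2), and without the Xist library 0.83 (exact permutation p = 0.1).

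Il1rap encodes the accessory protein that the IL-1 receptor needs for signalling. It stood at 47.3, 42.4 and 38.7 FPKM in WT hepatocytes, 43.7, 30.4 and 38.3 FPKM in Cdk1 Liv-/- hepatocytes, 41.9, 40.1 and 35.9 FPKM in WT whole liver and 34.2, 22.1 and 29.1 FPKM in Cdk1 Liv-/- whole liver. The genotypes overlapped in hepatocytes and lay apart in whole liver, where all Cdk1 Liv-/- libraries were lower. Il1rap fell 1.38-fold in whole liver (log2 difference -0.48, interval -0.88 to -0.08, limma adjusted p = 0.0689), and the hepatocyte difference of -0.20 did not pass (limma adjusted p = 0.424). With single libraries left out Il1rap ranged from -0.62 to -0.31 in whole liver and from -0.32 to -0.06 in hepatocytes. The whole liver result passed in 11 of 16 alternatives. The limma BH adjusted p was 0.185, 0.159 and 0.105 without replicates 1, 2 and 3 of WT whole liver and 0.129 without the Xist library, at differences of -0.43, -0.46, -0.54 and -0.51.

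Tnf, the founding ligand of its family, was low throughout. It stood at 0.06, 0.05 and 0.05 FPKM in WT hepatocytes and at 0.14, 0.10 and 0.14 FPKM in Cdk1 Liv-/- hepatocytes. In whole liver Tnf stood at 0.16, 0.17 and 0.21 FPKM in WT and at 0.90, 0.55 and 0.33 FPKM in Cdk1 Liv-/- libraries. The Cdk1 Liv-/- libraries were above the WT ones in both compartments. Tnf rose 3.30-fold in whole liver (log2 difference 0.65, interval 0.18 to 1.12, limma adjusted p = 0.0456), under the fold threshold with the added 0.5 and above it (1.23) with 0.1. It did not pass without WT whole liver replicate 1 (0.63, limma adjusted p = 0.127) or replicate 2 (0.64, limma adjusted p = 0.115), in a range of 0.0126 to 0.127 over the alternatives. The Tnf difference without the Xist library was 0.84 (limma adjusted p = 0.0249). Over the summed Kupffer cell and macrophage markers Tnf was higher in all Cdk1 Liv-/- whole liver libraries, by 1.19 (exact permutation p = 0.1). With 0.5 added to Tnf, more than its level in 10 of the 12 libraries, that value was 0.23 with overlap (exact permutation p = 0.9). Over the same markers in hepatocytes Tnf was higher in all Cdk1 Liv-/- libraries, by 2.30, or 1.24 with 0.5 added (exact permutation p = 0.1 for each). The hepatocyte difference of Tnf by itself, 0.18, did not pass (limma adjusted p = 0.169). It passed, far under the fold threshold, in limma with no filter on low values (adjusted p = 0.0508) and in the two-sample test with q-values (q = 0.0378), in a range of 0.0378 to 0.448 over the alternatives.

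The read numbers behind these low values are small. The deposited table gives no counts, and reads were worked out from the steps between the smallest values in a library, where 56.7% to 63.7% of low values of genes with transcripts of 300 to 900 bases lay within 0.1 reads of a whole number. By that reckoning 1 FPKM on 1 kilobase was worth between 38.6 and 49.8 reads for WT and between 34.8 and 40.6 reads for Cdk1 Liv-/- hepatocyte libraries. The ranges for whole liver were 41.5 to 43.2 reads (WT) and 47.4 to 48.0 reads (Cdk1 Liv-/-). Tnf then rested on 3 to 5 reads per WT and 5 to 9 per Cdk1 Liv-/- hepatocyte library, and on 9 to 14 (WT) and 22 to 67 (Cdk1 Liv-/-) reads per whole liver library. Il1r2, whose 4 annotated transcripts span 366 to 1419 bases, rested on 0 to 11 reads in hepatocytes and, in whole liver, on 0 to 5 (WT) and 7 to 87 (Cdk1 Liv-/-). Il1b in Cdk1 Liv-/- hepatocytes rested on 8 to 36 reads, and Il1a on 71 to 640 reads over all libraries.

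Tnfrsf1a encodes TNF receptor 1, which carries a death domain. It stood at 30.7, 29.4 and 37.0 FPKM in WT hepatocytes, 39.5, 35.0 and 36.5 FPKM in Cdk1 Liv-/- hepatocytes, 34.8, 36.6 and 37.3 FPKM in WT whole liver and 52.9, 53.1 and 49.8 FPKM in Cdk1 Liv-/- whole liver. The 3 Cdk1 Liv-/- whole liver libraries lay above all 9 others, which overlapped. Tnfrsf1a rose 1.43-fold in whole liver (log2 difference 0.51, interval 0.39 to 0.64, limma adjusted p = 0.00250), below the fold threshold. It passed in 16 of 16 alternatives, at 0.29 with size factors and 0.54 without the Xist library (limma adjusted p = 0.00935, range 0.00189 to 0.0247 over the alternatives). In hepatocytes the difference of 0.20 did not pass (limma adjusted p = 0.287), and neither did the interaction of -0.32 (limma adjusted p = 0.153), except without WT hepatocytes replicate 2 (-0.38, limma adjusted p = 0.0869).

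Tnfrsf1b encodes TNF receptor 2, which lacks a death domain. It stood at 12.6, 11.6 and 12.7 FPKM in WT hepatocytes, 19.2, 10.5 and 13.5 FPKM in Cdk1 Liv-/- hepatocytes, 8.37, 8.11 and 10.9 FPKM in WT whole liver and 12.4, 15.9 and 12.6 FPKM in Cdk1 Liv-/- whole liver. Hepatocyte groups overlapped and whole liver groups did not. Tnfrsf1b rose 1.49-fold in whole liver (log2 difference 0.56, interval 0.19 to 0.92, limma adjusted p = 0.0351), below the fold threshold, and did not pass without WT whole liver replicate 1 (0.50, limma adjusted p = 0.112) or replicate 2 (0.48, limma adjusted p = 0.103), in a range of 0.0246 to 0.156 over the alternatives. The Tnfrsf1b difference without the Xist library was 0.61 (limma adjusted p = 0.0682). Over the summed Kupffer cell and macrophage markers the Tnfrsf1b difference was 0.16 in whole liver with overlap (exact permutation p = 0.4) and 1.24 in hepatocytes without overlap (exact permutation p = 0.1), where Tnfrsf1b by itself did not pass. In hepatocytes Tnfrsf1b differed by 0.18 (limma adjusted p = 0.622), a sign that turned to -0.05 without Cdk1 Liv-/- hepatocytes replicate 1.

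Tnfrsf12a, which encodes the TWEAK receptor Fn14, rose in both compartments. It stood at 6.46, 5.86 and 7.46 FPKM in WT hepatocytes and at 21.7, 37.0 and 33.4 FPKM in Cdk1 Liv-/- hepatocytes. In whole liver Tnfrsf12a stood at 5.32, 5.68 and 8.22 FPKM in WT and at 46.3, 79.5 and 58.3 FPKM in Cdk1 Liv-/- libraries. The WT libraries of both compartments shared one range, and all 6 Cdk1 Liv-/- libraries lay above it, those of whole liver above those of hepatocytes. Tnfrsf12a rose 4.66-fold in hepatocytes (log2 difference 2.11, interval 1.59 to 2.62, limma adjusted p = 0.00395) and 9.58-fold in whole liver (3.15, interval 2.56 to 3.74, limma adjusted p = 0.00109). It was called in 16 of 16 alternatives in each compartment, with values of 1.96 to 2.34 in hepatocytes and 2.93 to 3.34 in whole liver. Without the Xist library the whole liver value was 3.17 (limma adjusted p = 0.00799). Of 7 tested cholangiocyte markers 5 rose in each compartment beside Tnfrsf12a and 2 did not pass. The sums of the 8 listed, mostly Spp1, were 29.4, 24.4 and 39.0 FPKM in WT hepatocytes, 76.0, 138 and 112 FPKM in Cdk1 Liv-/- hepatocytes, 71.8, 76.5 and 58.2 FPKM in WT whole liver and 293, 157 and 285 FPKM in Cdk1 Liv-/- whole liver. Spp1 alone stood at 18.3, 13.5 and 28.7 FPKM in WT and at 63.0, 120 and 95.6 FPKM in Cdk1 Liv-/- hepatocytes. The rise of the sums in hepatocytes is thus mostly that of Spp1. In both hepatocyte groups the libraries had the same order by the marker sum and by Tnfrsf12a. In both whole liver groups the library with the lowest sum had the highest Tnfrsf12a level, replicate 3 in WT and replicate 2 in Cdk1 Liv-/- mice. The part of these cells in the rise was not tested. The interaction of -1.04 did not pass (limma adjusted p = 0.102), but passed in 5 of 20 alternatives in a range of 0.0857 to 0.222. Among them were the fits without WT hepatocytes replicate 2 (-1.12, limma adjusted p = 0.0915), Cdk1 Liv-/- hepatocytes replicate 2 (-1.19, limma adjusted p = 0.0900) and Cdk1 Liv-/- whole liver replicate 1 (-1.23, limma adjusted p = 0.0857).

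The ligand of this receptor, Tnfsf12, did not move with it. It stood at 8.37, 7.61 and 10.4 FPKM in WT hepatocytes, 7.41, 5.97 and 8.75 FPKM in Cdk1 Liv-/- hepatocytes, 9.91, 13.9 and 12.4 FPKM in WT whole liver and 11.8, 14.3 and 12.2 FPKM in Cdk1 Liv-/- whole liver. The genotypes overlapped in both compartments. The Tnfsf12 differences of -0.24 in hepatocytes (limma adjusted p = 0.414) and 0.09 in whole liver (limma adjusted p = 0.656) did not pass, and the latter turned to -0.13 with size factors.

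Within a genotype, hepatocytes were compared with whole liver. In WT mice Il1b was 1.50 higher in hepatocytes on the log2 scale (SE 0.192, limma adjusted p = 0.0623), the only 1 of the 10 genes called higher, against 0.0403% of all tested genes (0.104% at the adjusted p alone). By limma 0 were lower, against 0.426% of all tested genes by the call and 1.42% at the adjusted p alone, with 1, Tnf, lower at an unadjusted p under 0.05 and 1 by the two-sample test with q-values. These shares hung on single libraries: the genes called, 7 higher and 74 lower, became 55 and 472 without WT hepatocytes replicate 3 and 1 and 0 without replicate 1. The Il1b call was lost, with limma BH adjusted p of 0.215, 0.180, 0.202 and 0.261, without WT hepatocytes replicate 1 or 2 or WT whole liver replicate 1 or 2, at differences of 1.38 to 1.58, and with a replicate block (limma BH adjusted p = 0.175), in a range of 0.0428 to 0.261 over the alternatives. Il1a differed by 0.62 in the same direction, with no overlap of its libraries, and did not pass (limma adjusted p = 0.168). Markers of other cell types did differ between these WT groups: 4 of 7 cholangiocyte, 2 of 10 monocyte, 2 of 8 T and NK cell, 1 of 12 neutrophil, 1 of 6 B cell and 1 of 7 erythroid markers were lower in hepatocytes by limma at a BH adjusted p of at most 0.1. At an unadjusted p under 0.05 the lower markers were 7, 5, 8, 8, 5 and 3 in the same order. Their part in the Il1b difference was not tested. For stellate cells 0 of 10 markers passed by limma (median -0.94), with 4 lower at an unadjusted p under 0.05 and 0 by the two-sample test with q-values. In the same comparison 0 of 12 Kupffer cell markers (median -0.62) and 0 of 10 endothelial markers (median 0.09) passed by limma, with 0 of either list at an unadjusted p under 0.05 and 0 by the two-sample test with q-values.

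In Cdk1 Liv-/- mice the order was the other way round for Il1a and Il1b. Il1a (-1.56, limma adjusted p = 0.00711), Il1b (-1.99, limma adjusted p = 0.0101) and Il1r2 (-1.03, limma adjusted p = 0.0226) were called lower in hepatocytes than in whole liver. These 3 of 10 stand against 9.46% of all tested genes called lower, and 0 of 10 called higher by limma, with 0 at an unadjusted p under 0.05, against 1.51%. Il1r2 passed the filter on low values only through Cdk1 Liv-/- whole liver, so that it adds no support to the lower counts of this comparison. At the adjusted p alone Tnf (-0.77), Tnfrsf1a (-0.49) and Tnfrsf12a (-0.99) made 6 lower (Tnfrsf1a not with size factors, at -0.22, limma adjusted p = 0.103, range 0.00162 to 0.103 over the alternatives), a share to be read against 35.9% of all tested genes, and 0 were higher by limma, against 8.86%. Size factors moved the all-gene median of this comparison from -0.19 by 0.21 and the genes called from 262 higher and 1644 lower (13.7% higher) to 467 and 1227 (27.6% higher), with Il1a at -1.32 and Il1b at -1.76 still called and Il1r2 at -0.89 under the fold threshold. The Il1r2 call was also lost without Cdk1 Liv-/- hepatocytes replicate 1 (-0.97) or 2 (-0.996) and without Cdk1 Liv-/- whole liver replicate 2 (-0.77). Il1a (-1.73), Il1b (-2.34) and Il1r2 (-1.10) were all called lower without the Xist library. The Tnfrsf12a difference passed the fold threshold without Cdk1 Liv-/- hepatocytes replicate 2 (-1.14) or 3 (-1.07) and without Cdk1 Liv-/- whole liver replicate 1 (-1.17) or 3 (-1.01). Il1rn passed without Cdk1 Liv-/- hepatocytes replicate 3 (-1.25, limma adjusted p = 0.0783), and Il1r1 as higher without replicate 2 (1.04, limma adjusted p = 0.0719). In this comparison 11 of 12 Kupffer cell markers, 10 of 10 endothelial, 10 of 10 stellate cell and 12 of 12 neutrophil markers were lower too, and their part in it was not tested.

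The other genes of both pathways were described from 8 lists, some of which share genes such as Birc3, Tnfaip3, Bcl3, Nfkbia and Nfkbiz, and the counts are those past a limma BH adjusted p of 0.1. At that threshold 12.1% of all tested genes were higher and 6.61% lower in hepatocytes, and 38% were higher and 7.53% lower in whole liver. Of the other IL-1 family ligands and receptors, 6 of 21 listed were tested. In hepatocytes 1 rose, the alarmin Il33 (0.95, adjusted p = 0.0111), with Il18 at 0.04, Sigirr at -0.37 and Il18bp at -0.51 not passing (list median -0.12). In whole liver 3 rose and 1 fell (median 0.43), led by Il33 (2.00, adjusted p = 0.00277) and the receptor subunit Il18rap (0.52), with Il18 at 0.14 not passing and the inhibitory receptor Sigirr at -0.51 falling (adjusted p = 0.00744). Without Cdk1 Liv-/- whole liver (mean 0.4 FPKM) the mean of Il18rap over the libraries lay under the filter of 0.1 FPKM. Il33 went from 1.18 ± 0.157 FPKM in WT to 6.39 ± 2.03 FPKM in Cdk1 Liv-/- whole liver. Of 13 tested genes for inflammasomes and IL-1 processing, 2 rose and 1 fell in hepatocytes (median -0.25). Those were the protease Prtn3 (2.89), known from neutrophils, the pore-forming Gsdmd (0.87) and Casp1, which matures IL-1 beta (-0.77, adjusted p = 0.0951), while Casp4 at -0.68 did not pass. Prtn3 stood at 16.6 ± 4.56 FPKM in Cdk1 Liv-/- hepatocytes and at 7.86 ± 3.14 FPKM in Cdk1 Liv-/- whole liver. The 12 neutrophil markers were all lower in those hepatocytes than in that whole liver. In whole liver 10 of the 13 rose (median 0.57), led by Prtn3 (1.97) and Mefv (0.98), while Nlrc4 (0.22) and Nlrp1b (0.19) did not pass.

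For signalling below the IL-1 receptor, 0 of 16 genes passed in hepatocytes by limma (median 0.18; 1 higher and 1 lower at an unadjusted p under 0.05, and 1 higher by the two-sample test with q-values), from Tab1 at 0.33 and Mapkapk2 at 0.28 to Map3k3 at -0.10 and Ecsit at -0.31. In whole liver 9 rose and 1 fell (median 0.25), led by the inhibitory kinase Irak3 (0.67) and the adaptor Myd88 (0.63), with Peli2 at -0.16 not passing and Ecsit falling (-0.41). For signalling below the TNF receptors, 7 of 25 genes rose in hepatocytes (median 0.16), led by Mlkl (1.15), the executor of necroptosis, and Map3k14 (0.98), the kinase of the non-canonical NF-kappaB pathway, with Map3k8 at -0.12 and Ripk3 at -0.49 not passing. In whole liver 20 of the 25 rose (median 0.42), led by Tnip1 (1.27, adjusted p = 0.000286) and Mlkl (1.25), with Ripk1 at 0.14 and Cflar at -0.04 not passing. These medians stand against all-gene medians of 0.05 in hepatocytes and 0.18 in whole liver.

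Of the other TNF superfamily ligands 8 of 17 were tested, and 2 rose in hepatocytes (median -0.01), lymphotoxin beta (Ltb, 1.71) and Eda (0.76), with Tnfsf12 and Tnfsf10 (-0.49) at the lower end and not passing. In whole liver 3 rose (median 0.31), led by Ltb (1.91, adjusted p = 0.00167) and Tnfsf14 (0.55), with Fasl at -0.07 not passing. These 3 of 8 are near the 38% of all tested genes that were higher, and no result about the list. Of 22 tested other receptors of the superfamily, 4 rose in hepatocytes (median -0.07), led by Eda2r (2.59, adjusted p = 0.00129) and the death receptor Tnfrsf10b (2.20, adjusted p = 0.00319), with Tnfrsf11b at -0.96 and Ngfr at -1.29 not passing. Eda2r stood at 0.0900 ± 0.0656 FPKM in WT hepatocytes against 3.07 ± 0.514 FPKM after the deletion, and Tnfrsf10b at 0.283 ± 0.0611 against 3.14 ± 0.785 FPKM. In whole liver 10 rose (median 0.37), led by Tnfrsf10b (2.17, adjusted p = 0.000376) and Cd40 (1.60), with Tnfrsf25 at -0.00 and Tnfrsf13c at -0.14 not passing. These 10 of 22 are near the 38% of all tested genes as well. Eda2r was also called in whole liver (1.41), so that Tnfrsf12a shared calls in both compartments with Eda2r and Tnfrsf10b.

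Of 14 NF-kappaB subunits and inhibitors 6 rose in hepatocytes (median 0.39), among them Bcl3 (1.00, adjusted p = 0.0292), while Ikbkg at 0.75, Rel at 0.03 and Nfkb1 at -0.15 did not pass. In whole liver 11 rose (median 0.63), led by Relb (1.33) and Bcl3 (1.14), with Rel at 0.14 and Chuk at -0.06 not passing. Of 28 tested genes known to be induced by IL-1 or TNF, 15 rose and 1 fell in hepatocytes (median 0.62, 9 of them called higher). The acute-phase genes Saa2 (6.33, adjusted p = 0.000499) and Lcn2 (6.003, adjusted p = 0.000491) led, and Il6 fell (-0.43, adjusted p = 0.0293) from 0.220 ± 0.0400 to 0.0333 ± 0.0252 FPKM, with Csf1 at -0.37 not passing. The Il6 levels, 0.01 to 0.06 FPKM in Cdk1 Liv-/- hepatocytes, are near the lower end of detection. In whole liver 24 of the 28 rose and 1 fell (median 1.26, 17 of them called higher), led by Lcn2 (5.19) and Saa2 (4.32), with Tnfaip2 at 0.04 not passing and Sod2 falling (-0.33, adjusted p = 0.0280). Lcn2 went from 9.26 ± 0.875 to 657 ± 270.2 FPKM in hepatocytes and from 13.5 ± 1.62 to 520.3 ± 139 FPKM in whole liver. These genes answer to other signals as well, so that the list describes levels and not the activity of a receptor.

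**Figure D5:**
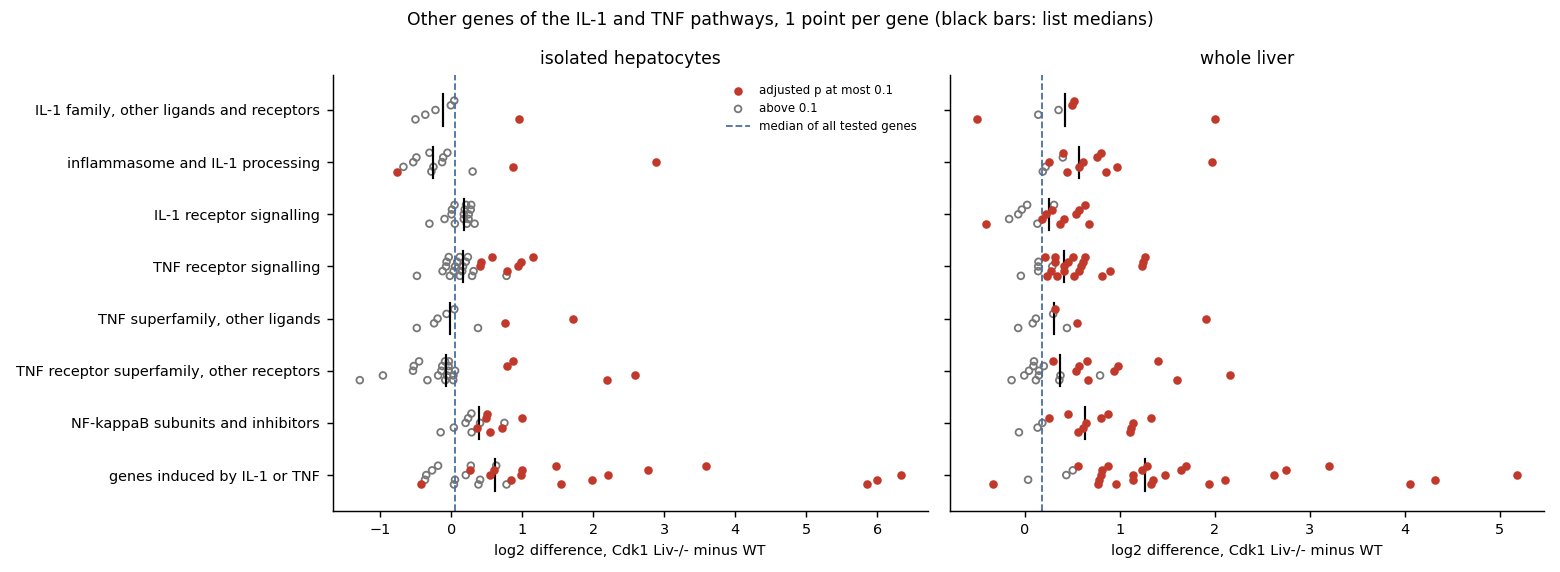
Log2 difference between Cdk1 Liv-/- and WT libraries (horizontal axis) of each tested gene of the 8 lists in hepatocytes (left) and whole liver (right), filled where the limma BH adjusted p was at most 0.1, with black bars for list medians and a dashed line for the median of all tested genes. The genes induced by IL-1 or TNF had the highest list medians, 0.62 and 1.26.

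Profiles like those of the 10 genes were sought among the 12282 genes with a mean of at least 1 FPKM, as the smallest root mean square (RMS) difference of centred log2(FPKM + 0.5) over the 12 libraries, which share genotype and compartment. Nearest to Il1a were Adgrl4, Kdr and Tek, each at an RMS of 0.26 against 0.74 for Il1a around its own mean. Kdr and Tek are on the endothelial marker list. Nearest to Il1b were Il1a (0.52), Apold1 (0.53) and Ackr1 (0.57), against 0.96 around its own mean, so that no profile was close to it. Nearest to Il1rn were Maff (0.28), Dusp5 (0.30) and Uap1l1 (0.30), against 0.92. Nearest to Tnfrsf12a were 2200002D01Rik (0.31), Scn8a (0.32) and Gm19705 (0.33), against 1.39. For Il1r2 the nearest were Smox (0.10), Cstb (0.16) and Rab11fip5 (0.17), against 0.56, and for Tnf they were Phc2 (0.13), Bak1 (0.14) and Usb1 (0.14), against 0.39. The nearest to Il1r1 were Fmo5 (0.25), Zbed5 (0.25) and Cipc (0.26), against 0.58, and the nearest to Il1rap were Ugt2b1 (0.11), Aldh6a1 (0.11) and Otc (0.12), against 0.29. Tnfrsf1a had Ufm1, Med12 and Slc48a1 nearest, each at 0.06 against 0.27, and Tnfrsf1b had Irf2bp2 (0.16), 3110043O21Rik (0.17) and Sesn2 (0.18), against 0.32.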

How the data were processed

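The deposited table holds FPKM as the authors made them: reads aligned with STAR to mm10 and quantified with RSEM 1.2.31, by the submitters' processing notes, with no normalization between libraries. The annotation release and filters are not stated. All 12 columns matched a library. Genes averaging 0.1 FPKM or more were kept, 0.5 was added and log2 taken. Each comparison was fitted apart with limma 3.58.1 (lmFit and eBayes with trend, R 4.3.3), the interaction in 1 fit of 12 libraries, two-sided, with BH adjustment over 17386 genes. The study's own test was a two-sample test with q-values, run here as an alternative with a Storey lambda of 0.5. Ratios were compared by exact permutation. Python 3.11.15, pandas 2.3.3, numpy 2.4.6, scipy 1.17.1 and matplotlib 3.10.9 were used. Named genes were the 10 genes, Cdk1, Xist with 4 Y-linked genes, Tnfsf12, the 2 highest and 2 lowest log2 differences of each of 8 pathway lists per genotype comparison, the most abundant and absent genes of 10 marker lists and the 3 nearest profiles of each gene. Members and lists were chosen with earlier results of these data known. Alternatives were pseudocounts of 0.1 and 1, no filter or a mean of at least 1 FPKM, median-ratio size factors, equal library sums, a replicate block, q-values, limma without trend, 1 fit of all 12 libraries and each library left out. Ratios to summed markers were added after the data were seen.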

Additional observations from a re-analysis of the deposited data

Results flagged for a closer look

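The genotype difference differed between isolated hepatocytes and whole liver for 3 genes by the limma interaction test at a BH adjusted p of at most 0.1. The hepatocyte difference minus the whole liver difference was -2.17 on the log2 scale for Il1a and -3.49 for Il1b, both past the threshold in 20 of 20 alternatives. For Il1r2 it was -0.95, which passed in 5 of 19 alternatives and rests on 0 to 87 reads per library. Without Cdk1 Liv-/- whole liver the mean of Il1r2 over the libraries lay under the filter of 0.1 FPKM. By the same test 9 of 10 endothelial, 5 of 10 monocyte, 4 of 12 Kupffer cell and 4 of 10 stellate cell markers were lower too, against 7.49% of all tested genes. Of 12 neutrophil markers 0 passed by limma (median -1.40), with 8 lower at an unadjusted p under 0.05. The part of these cells in the differences was not tested.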

How the results depend on the processing

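Of 830 values of the 10 genes under an alternative, 776 kept their direction and stayed called or not called by adjusted p and fold together, 28 lost a call, 18 gained one and 8 changed sign. By the adjusted p alone 34 no longer passed and 23 newly passed. In hepatocytes the genes called higher went from 1 to 2 with a replicate block, which added Il1rn, and in 1 fit of all 12 libraries, which added Il1r1, and those at the adjusted p alone from 1 to 2 with no filter, a replicate block, q-values and 1 fit of all 12; both ranged from 1 to 2 with single libraries left out. In whole liver no filter gave 0 lower at the adjusted p alone, and leaving out libraries gave 5 to 9 higher and 0 to 1 lower. The interaction gave 2 to 5 lower. In WT compartments the replicate block gave 0 higher by either rule, no filter and q-values gave 1 lower at the adjusted p, and leaving out libraries gave 0 to 1 higher and 0 to 2 lower. In Cdk1 Liv-/- compartments size factors and the replicate block gave 1 and 1 fit of all 12 gave 2 higher at the adjusted p, and leaving out libraries gave 0 to 1 higher, by either rule, and 2 to 5 called lower. The Il1r2 to Il1r1 ratio in whole liver was 2.00 with a pseudocount of 0.1. Signs turned with size factors for Il18 (-0.0337) and Rel (-0.0219) in hepatocytes and for Tnfsf12 (-0.13), Il18 (-0.0718), Ripk1 (-0.0638), Rel (-0.0171) and Tnfaip2 (-0.18) in whole liver, and for Tnfrsf25 there with a pseudocount of 0.1 (0.0104) and equal sums (0.0205). Il1a over the summed Kupffer cell and macrophage markers in whole liver was -0.0677, and -0.0284 with nothing added. With single libraries left out, hepatocyte differences ranged from -0.0712 to 0.135 for Il18, -0.350 to 0.0648 for Map3k3, -0.318 to 0.0538 for Map3k8, -0.17 to 0.24 for Rel and -0.0472 to 0.376 for Tnfrsf1b. Whole liver differences ranged from -0.113 to 0.0179 for Cflar, -0.138 to 0.00490 for Chuk, -0.122 to 0.0301 for Fasl, -0.12 to 0.26 for Tnfaip2, -0.14 to 0.12 for Tnfrsf25 and -0.0428 to 0.189 for Tnfsf12. Between compartments they ranged from -0.0687 to 0.208 for Il1r1 and -0.0557 to 0.236 for Tnfrsf12a in WT and from -0.18 to 0.24 for Tnfrsf1b in Cdk1 Liv-/- mice. The cause of these shifts was not tested. Values of Il1r2, Tnf and Il6 are limited by depth.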
